A study of Mus musculus with 24 samples.

Results

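The methionine cycle and transsulfuration pathway was followed through 10 liver genes, Mat1a, Gnmt, Ahcy, Bhmt, Pemt, Gamt, Cbs, Cth, Cdo1 and Csad. They were taken by symbol from a count table of 22355 mouse genes, and all 10 were among the 11508 genes that passed the filter on low counts. Livers came from diet-induced obese (DIO) mice dosed for 4 d with vehicle or with IUB288, the code name of an agonist of the glucagon receptor. The 3 groups, each of 8 mice with 1 RNA-seq library per mouse, were vehicle livers taken 22 h after the last injection, IUB288 livers taken 4 h after it and IUB288 livers taken 22 h after it. All 3 groups shared the obesogenic state, and the sources used here gave no dose, sex, age or strain. No vehicle liver was taken at 4 h, so the drug and the hour after injection cannot be told apart in the comparison of 4 h with vehicle. In the comparison of 22 h with 4 h, a change in drug effect cannot be told apart from a change with the hour alone.

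The methionine cycle turns methionine into S-adenosylmethionine (SAM), the methyl donor of the cell, and then, through S-adenosylhomocysteine, into homocysteine. Homocysteine either takes up a new methyl group and becomes methionine again, or leaves through transsulfuration, which builds cysteine by way of cystathionine. Liver carries out most of this traffic in the body, and glucagon is known there for raising the breakdown of amino acids.

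Each library held between 14 and 44.1 M counts. Vehicle replicate 1 stood apart, with 1390 CPM (counts per M library counts, scaled between libraries by TMM) of the brown fat gene Ucp1 against at most 0.576 CPM in the other libraries. The summed 10 hepatocyte markers, most of the sum being Alb, ran from 73800 to 117000 CPM in vehicle livers, from 78000 to 105000 CPM at 4 h and from 69800 to 93900 CPM at 22 h, and no marker was at 0 in all libraries. These markers went both ways, with 5 higher (such as Cps1 and Hnf4a) and 4 lower (such as Alb and Apoa1) at 4 h, and 6 higher and 3 lower at 22 h. Summed markers of stellate cells and fibroblasts had medians of 801, 586 and 453 CPM in vehicle, 4 h and 22 h livers, and summed endothelial markers had medians of 471, 312 and 279 CPM. In the same order the medians were 444, 316 and 312 CPM for Kupffer cells and macrophages, 350, 211 and 174 CPM for erythroid cells, 335, 162 and 140 CPM for cholangiocytes, and 16.3, 9.9 and 11.1 CPM for T, NK and B cells. Only the stellate cell and fibroblast sums did not overlap between vehicle and treated livers. At 4 h and 22 h, 6 and 8 of 9 stellate cell and fibroblast markers and 4 and 8 of 8 endothelial markers were called lower. These counts were 1 and 4 of 8 for Kupffer cells and macrophages and 4 and 4 of 5 for erythroid cells. They were 3 and 2 of 7 for cholangiocytes and 3 and 3 of 9 for T, NK and B cells, beside 22.5% and 19.2% of all genes. In whole tissue, fewer cells of a type and less RNA per cell cannot be told apart, and the part of these shifts in the results below was not tested.

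Gnmt, Ahcy and Cbs code for enzymes of 3 successive parts of the path and all were higher at both times, so the sequences upstream of their starts are shown for reference (RefSeq, GRCm38.p6, all on the minus strand). Only bases before the first annotated start of each gene are printed, 5′ to 3′, and capitals mark a match to the E-box CACGTG.
Gnmt, chr17:46729212-46729415: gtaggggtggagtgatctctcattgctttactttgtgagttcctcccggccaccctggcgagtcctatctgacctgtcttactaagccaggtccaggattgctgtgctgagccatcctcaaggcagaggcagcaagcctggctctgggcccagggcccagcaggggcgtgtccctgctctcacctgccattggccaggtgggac
Ahcy, chr2:155074498-155074747: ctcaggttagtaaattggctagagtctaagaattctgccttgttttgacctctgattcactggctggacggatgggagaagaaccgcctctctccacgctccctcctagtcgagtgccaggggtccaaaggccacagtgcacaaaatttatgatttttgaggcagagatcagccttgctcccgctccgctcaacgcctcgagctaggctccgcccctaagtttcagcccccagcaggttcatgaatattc
Cbs, chr17:31637239-31637455: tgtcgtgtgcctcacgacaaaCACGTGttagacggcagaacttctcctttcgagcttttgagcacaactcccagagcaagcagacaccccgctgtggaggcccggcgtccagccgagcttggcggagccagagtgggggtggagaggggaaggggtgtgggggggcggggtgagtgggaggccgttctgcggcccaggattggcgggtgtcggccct
The 250 bases before each listed start of Gnmt, Ahcy, Bhmt, Pemt, Gamt, Cbs and Csad were searched on both strands for 5 letter strings. These were the full cAMP response element TGACGTCA, its core TGACG (which every full element also holds), the glucocorticoid receptor core site TGTTCT, the C/EBP-ATF element TGATGNAA and the E-box CACGTG. Cbs held the E-box 229 bases before the start that its window was built on, which lies 33 bases beyond the end of the stretch printed above, and 1 of the 2 Csad windows held TGACG 54 bases before the start of that window. No other match was found in these windows. Over 32851 promoter windows of the same length, 6.02% held CACGTG, 17.8% TGACG, 16.1% TGTTCT, 3.45% TGATGNAA and 1.55% TGACGTCA. Windows of Mat1a, Cth and Cdo1 were not used here.

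At 4 h, 5 of the 10 genes were higher than in vehicle, namely Mat1a, Gnmt, Ahcy, Cbs and Cth, and 2 were lower, Bhmt and Gamt. Pemt, Cdo1 and Csad did not pass the threshold, an adjusted p of 0.05 in limma-voom with Benjamini-Hochberg adjustment over all 11508 genes. Over all genes tested, 44.2% were called at 4 h, 21.7% higher and 22.5% lower, so single calls were common. Of all calls at 4 h 49.1% were higher, and 39.3% were with upper-quartile scaling, while none of the 10 genes changed direction under any of 3 other scalings. The median log2 fold change of the 10 genes was 0.40 and that of all genes tested was -0.07. At 22 h the same 5 genes were higher, Gamt was lower and 4 did not pass, against 17.6% of all genes higher and 19.2% lower (36.8% in all). The median log2 fold change was then 0.48 over the 10 genes and -0.02 over all genes. Among genes passing a stricter minimum count of 50, 53.6% were called at 4 h and 45.5% at 22 h. Both comparisons used the same 8 vehicle livers.

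**Figure D1:**
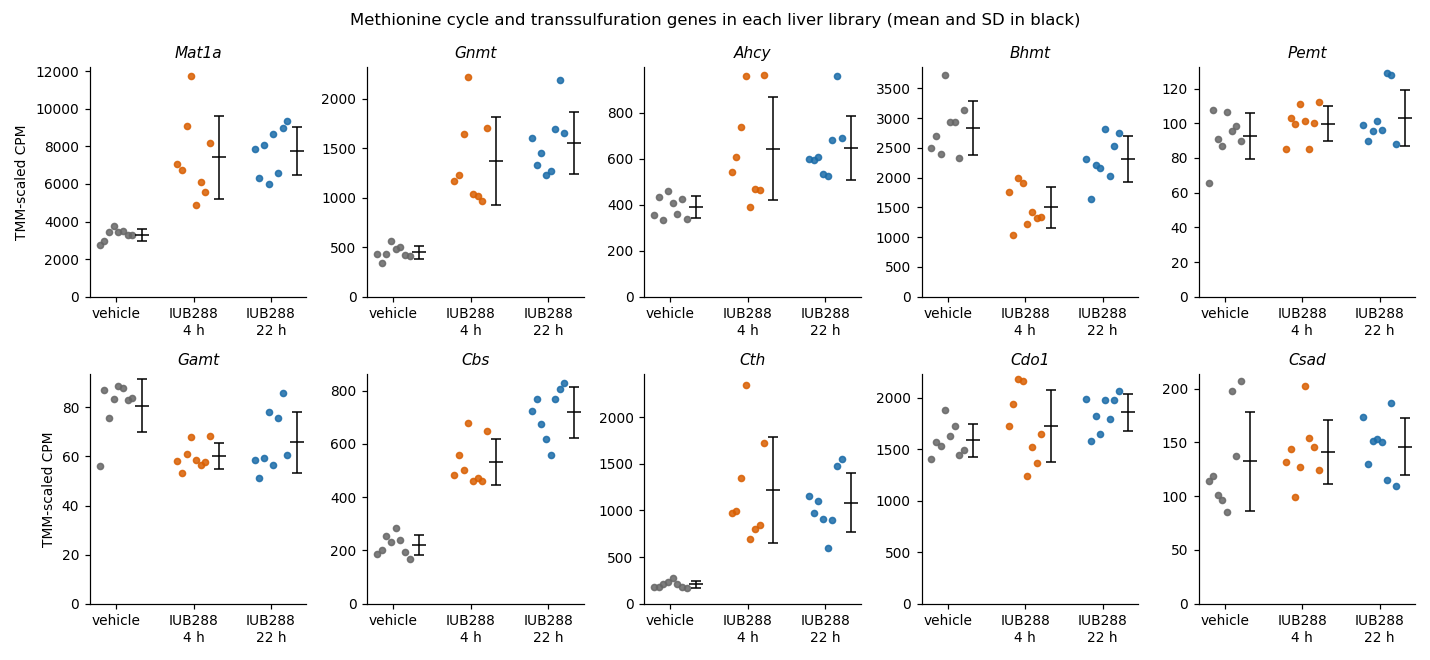
TMM-scaled CPM (vertical axes, from 0) of the 10 genes in each of 24 libraries (points), with vehicle livers in grey, IUB288 livers at 4 h in orange and at 22 h in blue, and the mean ± SD of each group of 8 in black. Mat1a, Gnmt, Cbs and Cth show no overlap between vehicle and either treated group. Bhmt shows none between vehicle and 4 h, and Ahcy none between vehicle and 22 h. The share of all genes without overlap is not given here, so these are descriptions of single genes.

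Mat1a, which makes SAM from methionine in the adult liver, opens the cycle (Entrez 11720, GRCm38 chromosome 14, 41105012 to 41124428). Its lowest, median and highest values were 2745, 3366 and 3780 CPM in vehicle livers, 4903, 6905 and 11750 CPM at 4 h, and 6019, 7961 and 9358 CPM at 22 h. Every treated liver lay above every vehicle liver, and the highest value of all came from replicate 4 at 4 h. The mean rose from 3305 ± 323.5 to 7432 ± 2211 CPM at 4 h (SD, n = 8; log2 fold change 1.12 ± 0.13 SE, limma-voom adjusted p = 1.72e-07) and to 7730 ± 1278 CPM at 22 h (1.21 ± 0.13, limma-voom adjusted p = 1.75e-07).

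Gnmt codes for glycine N-methyltransferase, which consumes SAM to methylate glycine and is the main outlet for surplus methyl groups in liver (Entrez 14711, chromosome 17, 46725664 to 46729211). Vehicle livers had a lowest, median and highest value of 342.6, 429.6 and 565.7 CPM, livers at 4 h 967.0, 1201 and 2224 CPM, and livers at 22 h 1234, 1530 and 2191 CPM. The groups did not overlap with vehicle at either time, while the treated groups overlapped with each other. Gnmt rose 2.98-fold at 4 h (log2 1.58 ± 0.15, limma-voom adjusted p = 3.6e-09) and 3.45-fold at 22 h (1.79 ± 0.15, limma-voom adjusted p = 1.84e-09).

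Ahcy, whose enzyme splits S-adenosylhomocysteine into homocysteine and adenosine, rose less (Entrez 269378, chromosome 2, 155059310 to 155074497). It ran from 334.7 through a median of 383.6 to 459.7 CPM in vehicle livers, from 392.0 through 577.0 to 965.4 CPM at 4 h, and from 522.9 through 604.3 to 960.5 CPM at 22 h. The lowest liver at 4 h, replicate 5, lay within the vehicle range and the other 7 above it, whereas the 22 h group lay wholly above it. The log2 fold change was 0.66 ± 0.16 at 4 h (limma-voom adjusted p = 0.00132) and 0.72 ± 0.16 at 22 h (limma-voom adjusted p = 0.000954), with all 8 livers above the vehicle mean each time. With only the livers numbered 13 to 24 in the descriptions, the 4 h change was 0.49 and no longer passed (limma-voom adjusted p = 0.15). Of the 50-base stretches of its transcript, 77.0% also occur in transcripts of 4 other genes, so its counts are uncertain.

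Pemt and Gamt use SAM beside Gnmt, to make phosphatidylcholine and creatine. Pemt (Entrez 18618, chromosome 11, 59970614 to 60046561) averaged 92.67 ± 13.25, 99.73 ± 10.13 and 103.2 ± 16.14 CPM in vehicle, 4 h and 22 h livers (SD, n = 8). These groups overlapped, and neither change passed, with log2 differences of 0.12 (95% interval -0.08 to 0.31, limma-voom adjusted p = 0.341) and 0.16 (-0.04 to 0.35, limma-voom adjusted p = 0.205). Gamt (Entrez 14431, chromosome 10, 80258151 to 80261025) ran from 56.07 through 83.61 to 88.62 CPM in vehicle livers, from 53.31 through 58.26 to 68.18 CPM at 4 h, and from 51.25 through 59.86 to 86.03 CPM at 22 h. Its 8 livers at 4 h lay below the vehicle mean and 7 of 8 did at 22 h, with overlap both times. Gamt fell by 0.41 ± 0.10 on the log2 scale at 4 h (limma-voom adjusted p = 0.00173) and by 0.31 ± 0.10 at 22 h (limma-voom adjusted p = 0.0199). Vehicle replicate 1 was the lowest vehicle liver for both genes. Without it Pemt differed by 0.04 and 0.09, still not called, and Gamt fell by 0.49 and 0.38 (limma-voom adjusted p = 6.45e-05 and 0.00152). The Gamt call was lost at 4 h with only livers 1 to 12 (-0.32, limma-voom adjusted p = 0.14), and at 22 h with livers 1 to 12 or 13 to 24 alone (largest limma-voom adjusted p = 0.241) and with no filter on low counts (0.0674).

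Bhmt codes for betaine-homocysteine methyltransferase, which returns homocysteine to methionine with a methyl group from betaine (Entrez 12116, chromosome 13, 93616891 to 93637758). The lowest, median and highest values were 2330, 2819 and 3714 CPM in vehicle livers, 1031, 1381 and 1985 CPM at 4 h, and 1646, 2257 and 2816 CPM at 22 h. All livers at 4 h lay below all vehicle livers, and those at 22 h stood between, overlapping both. Bhmt was 1.91-fold lower at 4 h (log2 -0.93 ± 0.13, limma-voom adjusted p = 2.29e-06), and at 22 h the log2 difference was -0.29 (95% interval -0.57 to -0.02, limma-voom adjusted p = 0.083). Of its 50-base stretches 59.6% occur in transcripts of 22 other genes, and its counts are uncertain for that reason. Bhmt1b, a near-identical copy counted separately, took 8.45%, 8.14% and 7.74% of the sum of both in the 3 groups. The log2 difference of Bhmt1b was -0.99 at 4 h and -0.44 at 22 h (limma-voom adjusted p = 1.19e-06 and 0.0115). The antisense gene Gm15622 covers 7.51% of the exon bases of Bhmt, and without a stated strand setting its reads cannot be told apart.

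Cbs and Cth carry homocysteine into cysteine. Cbs joins homocysteine and serine to cystathionine (Entrez 12411, chromosome 17, 31612623 to 31637233). Its values ran from 169.1 through 216.8 to 282.3 CPM in vehicle livers, from 459.6 through 492.2 to 679.6 CPM at 4 h, and from 558.6 through 746.2 to 828.2 CPM at 22 h. Both treated groups stood wholly above vehicle, and the 22 h group stood higher than the 4 h group with some overlap. Cbs rose 2.43-fold at 4 h (log2 1.28 ± 0.11, limma-voom adjusted p = 4.69e-10) and 3.28-fold at 22 h (1.72 ± 0.11, limma-voom adjusted p = 1.54e-11).

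Cth splits cystathionine to release cysteine (Entrez 107869, chromosome 3, 157894248 to 157925081). It ran from 162.6 through 198.3 to 278.9 CPM in vehicle livers, from 695.4 through 982.3 to 2348 CPM at 4 h, and from 594.5 through 1038 to 1549 CPM at 22 h. The lowest treated liver lay well above the highest vehicle liver, and replicates 4 and 8 were the highest at 4 h. Cth rose 5.54-fold at 4 h (log2 2.47 ± 0.20, limma-voom adjusted p = 4.37e-10) and 5.13-fold at 22 h (2.36 ± 0.20, limma-voom adjusted p = 3.29e-09). The coefficient of variation of Cth was 18.2% in vehicle livers, 46.6% at 4 h and 29.2% at 22 h. Ahcy and Gnmt were also more spread at 4 h, at 34.8% and 32.2%, against 12.4% and 15.1% in vehicle livers. The same 2 livers at 4 h, replicates 4 and 8, were the 2 highest for Gnmt, Ahcy, Cbs and Cth, and they had the lowest TMM factors of their group, 0.93 and 0.8965.

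Cdo1 and Csad take cysteine on to taurine. Cdo1, which oxidises cysteine to cysteine sulfinate (Entrez 12583, chromosome 18, 46713193 to 46728502), averaged 1585 ± 156.4, 1722 ± 349.7 and 1857 ± 176.5 CPM in vehicle, 4 h and 22 h livers. All 8 livers at 22 h lay above the vehicle mean of log2 CPM, within overlapping ranges. Replicate 2 at 22 h, with 1581 CPM, lay just below the vehicle mean of CPM. The log2 difference of Cdo1 was 0.10 at 4 h (95% interval -0.10 to 0.30, limma-voom adjusted p = 0.43) and 0.23 at 22 h (0.02 to 0.44, limma-voom adjusted p = 0.0731). The 22 h value of Cdo1 passed when only its own 16 libraries were fitted (limma-voom adjusted p = 0.0256), with livers 13 to 24 alone (0.0227), and without vehicle replicate 4 (0.0442), 4 h replicate 5 (0.0468) or 22 h replicate 2 (0.0494). Csad, which removes carbon dioxide from cysteine sulfinate (Entrez 246277, chromosome 15, 102176997 to 102205052), averaged 132.4 ± 46.05, 141.1 ± 29.85 and 146.2 ± 26.73 CPM. Its groups overlapped, with log2 differences of 0.14 (-0.20 to 0.48, limma-voom adjusted p = 0.527) and 0.19 (-0.15 to 0.53, limma-voom adjusted p = 0.385). With livers 1 to 12 alone Csad passed at 22 h (0.50, limma-voom adjusted p = 0.0238).

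**Figure D2:**
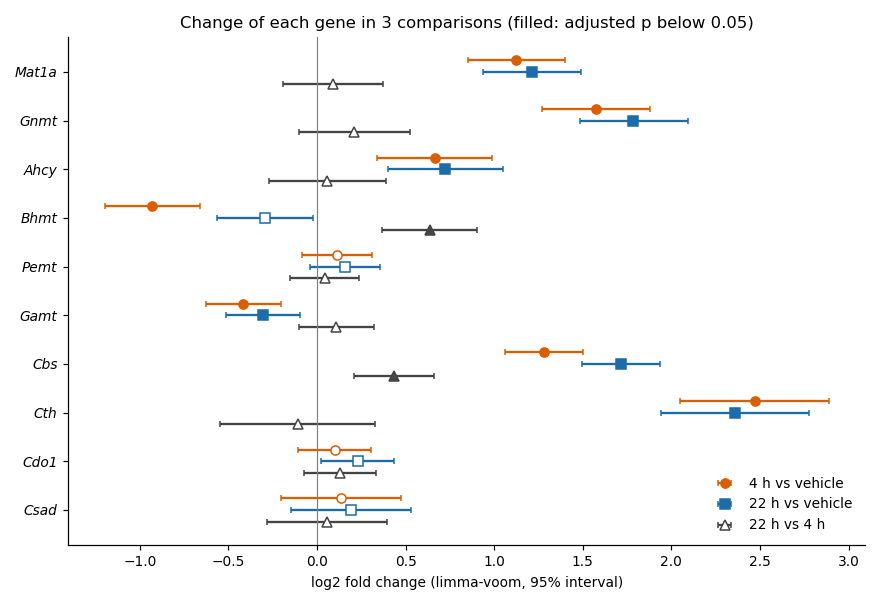
Log2 fold change (horizontal axis) of each gene from limma-voom with its 95% interval, for 4 h against vehicle (orange circles), 22 h against vehicle (blue squares) and 22 h against 4 h (dark triangles). Filled symbols have an adjusted p below 0.05: Cth lies farthest to the right in both comparisons with vehicle, Bhmt is the lowest at 4 h, and only Bhmt and Cbs are filled for 22 h against 4 h.

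Between the 2 IUB288 groups, Bhmt and Cbs were higher at 22 h than at 4 h, none of the 10 genes was lower and 8 did not pass (limma-voom, and the same 2 genes alone had an unadjusted p under 0.05). Of all genes tested, 14.3% were higher and 15% lower in this comparison (29.3% in all). Of these calls 48.8% were higher, and 66.3% were with upper-quartile scaling. Bhmt was 1.55-fold higher at 22 h (log2 0.64 ± 0.13, limma-voom adjusted p = 0.000434), and Cbs was 1.35-fold higher (0.43 ± 0.11, limma-voom adjusted p = 0.00344), with all 8 livers above the 4 h mean for each. Neither passed with livers 1 to 12 alone (limma-voom adjusted p = 0.343 for Bhmt and 0.121 for Cbs). Mat1a differed between the times by 0.09 (95% interval -0.19 to 0.37), Gnmt by 0.21 (-0.10 to 0.52), Ahcy by 0.06 (-0.27 to 0.39) and Cth by -0.11 (-0.55 to 0.33). With livers 13 to 24 alone, Mat1a, Gnmt and Cdo1 passed as well (0.47, 0.56 and 0.46; limma-voom adjusted p = 0.035, 0.0486 and 0.00454).

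Levels of different genes are compared only as CPM per kilobase of exon, with each base of any annotated exon counted once. This length was 6265 bases for Cbs and from 1035 (Gnmt) to 3468 (Mat1a) for the others. Which exons the liver transcripts hold was not tested, and the counts of Bhmt and Ahcy are uncertain as given above. In vehicle livers Bhmt had 1140 ± 184 CPM per kilobase (SD, n = 8), Cdo1 994 ± 98.1 and Mat1a 953 ± 93.3, and their ranges overlapped. Gnmt followed at 433 ± 65.4, Ahcy at 153 ± 19.0 and Cth at 113 ± 20.7 CPM per kilobase, Ahcy and Cth overlapping. Pemt (80.9 ± 11.6), Gamt (77.9 ± 10.4) and Csad (58.1 ± 20.2) did not differ beyond their spread, and Cbs had the lowest mean, 35.1 ± 6.12 CPM per kilobase, with a range that overlapped that of Csad. At 4 h the order began with Mat1a at 2140 ± 638, Gnmt at 1330 ± 428 and Cdo1 at 1080 ± 219 CPM per kilobase, neighbours that overlapped. Cth, at 670 ± 312 CPM per kilobase, and Bhmt, at 602 ± 139, came next and overlapped. Ahcy stood at 253 ± 87.9, and Pemt (87.1 ± 8.85), Cbs (85.1 ± 13.9), Csad (61.9 ± 13.1) and Gamt (58.1 ± 5.14) came last. At 22 h Mat1a (2230 ± 368), Gnmt (1500 ± 302) and Cdo1 (1160 ± 111 CPM per kilobase) led again, followed by Bhmt at 927 ± 156. Cbs, at 115 ± 15.1 CPM per kilobase, then ranked above Pemt, Csad and Gamt, and its range overlapped with that of Pemt.

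Ratios of 2 genes within a library do not depend on library scaling. They were compared by exact 2-sided permutation tests of 8 against 8 livers, with p adjusted over the 12 ratio tests, and the smallest p such a test can give is 0.000155. Cth counts were 0.935 times Cbs counts in vehicle livers, 2.12 times at 4 h and 1.46 times at 22 h, as geometric means. On the log2 scale this ratio spread from -0.25 to 0.01 in vehicle livers, from 0.60 to 1.79 at 4 h and from 0.09 to 0.90 at 22 h, so neither treated group overlapped with vehicle. The log2 ratio of Cth to Cbs was higher by 1.18 at 4 h and by 0.64 at 22 h (exact permutation p = 0.000155, adjusted 0.000622, for each). It was lower at 22 h than at 4 h (log2 difference -0.54, exact permutation p = 0.00901, adjusted 0.0155).

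The ratio of Gnmt to Mat1a counts was 0.135 in vehicle livers, 0.184 at 4 h and 0.2 at 22 h. It was higher at 4 h by 0.45 log2 units without overlap (exact permutation p = 0.000155, adjusted 0.000622) and at 22 h by 0.57 with overlap (exact permutation p = 0.000466, adjusted 0.0014). The Csad to Cdo1 ratio was 0.0799, 0.082 and 0.0779 in vehicle, 4 h and 22 h livers, and its differences of 0.04, -0.04 and -0.07 log2 units did not pass (smallest exact permutation p = 0.753, adjusted 0.892). Mat2a, the SAM synthetase gene of tissues outside the liver and of fetal liver, was scarce beside Mat1a, with 0.00179 counts for each Mat1a count in vehicle livers, 0.000999 at 4 h and 0.000439 at 22 h. The log2 ratio of Mat2a to Mat1a differed from vehicle by -0.84 at 4 h (exact permutation p = 0.282, adjusted 0.376) and by -2.03 at 22 h (exact permutation p = 0.00218, adjusted 0.00522). Single livers weighed on it: Mat2a had 50.87 CPM in vehicle replicate 2, 27.88 CPM in vehicle replicate 7 and 50.9 CPM in replicate 8 at 4 h, and at most 7.981 CPM in the other livers. Mat2a itself was not called in any comparison, and its log2 differences from vehicle were 0.36 and -0.74 (limma-voom adjusted p = 0.631 and 0.402).

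**Figure D3:**
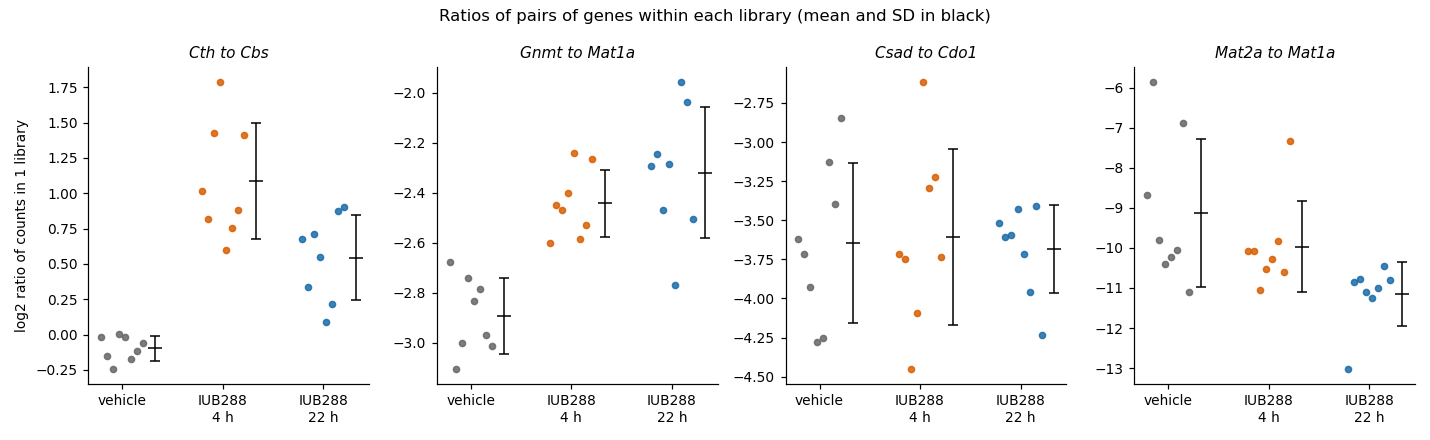
Log2 ratio of the counts of 2 genes within each library (vertical axes), with points for vehicle (grey), IUB288 4 h (orange) and IUB288 22 h (blue) livers and mean ± SD in black. Cth to Cbs lies near 0 in every vehicle liver and above 0 in every treated one, Csad to Cdo1 overlaps throughout, and Mat2a to Mat1a has single livers far from their group.

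Livers also differed from each other within a group, and genes of neighbouring steps were compared there. Correlations of log2 CPM were taken in each group of 8 for 8 pairs of genes, 24 relations in all, with exact permutation p adjusted over the 24. The values of a pair share the library and its scaling. Pearson's r passed in 9 relations and Spearman's rho in 7, and 21 of the 24 r values were above 0. How many pairs of other genes would pass was not computed, so these counts do not set the path apart. Cbs and Cth correlated in all groups, with r = 0.937, 0.904 and 0.815 in vehicle, 4 h and 22 h livers (exact permutation adjusted p = 0.00894, 0.0194 and 0.0363; rho = 0.857, 0.952 and 0.69, adjusted p = 0.0367, 0.0137 and 0.139). Without the 2 livers farthest from the median of Cbs, r was 0.855, 0.536 and 0.479, so the relation in treated livers rested in part on those livers.

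Gnmt and Ahcy had r = 0.166 in vehicle livers, 0.943 at 4 h and 0.957 at 22 h (exact permutation adjusted p = 0.827, 0.00456 and 0.00456; rho = 0.143, 0.905 and 0.929, adjusted p = 0.82, 0.0274 and 0.0178). Without the 2 farthest livers these were 0.226, 0.91 and 0.876, and the difference in r between groups was not tested. Ahcy and Cbs had r = 0.169, 0.909 and 0.738 (exact permutation adjusted p = 0.827, 0.0126 and 0.0744; rho = 0.0714, 0.952 and 0.881, adjusted p = 0.882, 0.0137 and 0.029), and 0.345, 0.687 and 0.849 without the 2 farthest. Mat1a and Gnmt had r = 0.719, 0.951 and 0.498 (exact permutation adjusted p = 0.0872, 0.00456 and 0.328; rho = 0.81, 0.881 and 0.524, adjusted p = 0.0581, 0.029 and 0.315), and 0.912, 0.953 and 0.0856 without them. Cdo1 and Csad ran opposite at 4 h, with r = -0.812 (exact permutation adjusted p = 0.0346; rho = -0.81, adjusted p = 0.0581), which was -0.513 without the 2 farthest livers. Gnmt and Gamt had r = 0.804 at 4 h (exact permutation adjusted p = 0.0435; rho = 0.69, adjusted p = 0.139) and 0.359 without them, so both relations rested at least in part on those livers. Bhmt and Pemt, and Cth and Cdo1, passed in no group.

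**Figure D4:**
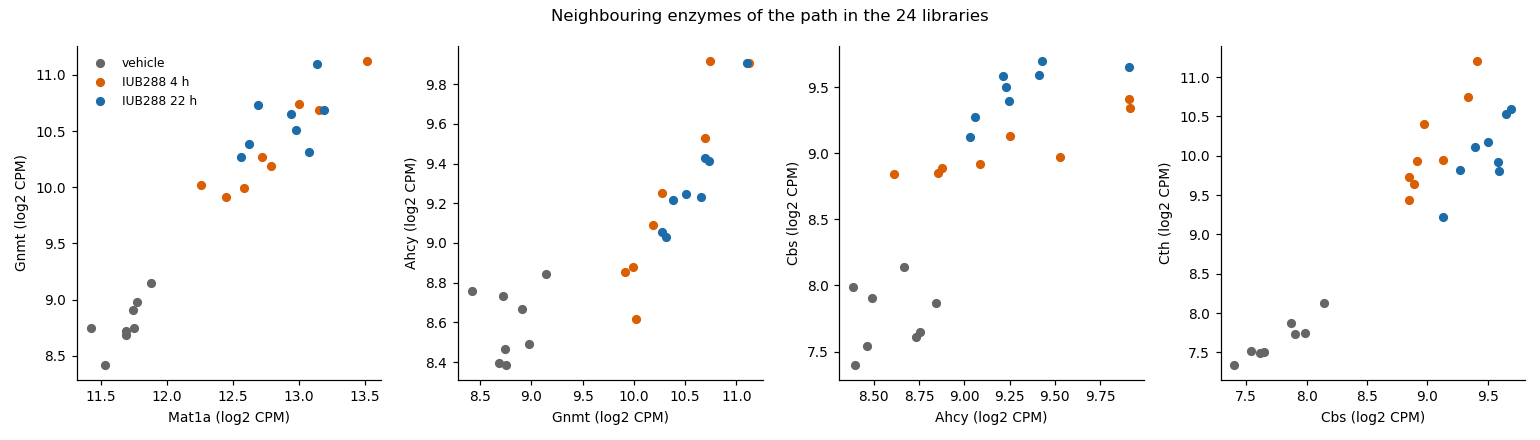
Log2 CPM of neighbouring genes of the path plotted against each other (axes in log2 CPM), 1 point per liver, with vehicle in grey, IUB288 4 h in orange and IUB288 22 h in blue. Vehicle livers lie apart from treated ones in each panel, so r was taken within groups, and Gnmt and Ahcy follow each other in the treated livers with r = 0.943 and 0.957.

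Likeness over all 24 libraries was measured as the root-mean-square difference of log2 CPM, each gene centred on its vehicle mean, among 6165 genes. The nearest genes to Mat1a were Agt (0.18) and Fbp1 (0.19), and those to Gnmt were Sult1a1 (0.17) and Ass1 (0.20). Cbs lay nearest to Itih2 (0.21) and Slco2a1 (0.21), and Ahcy to Ftcd (0.20) and Dbt (0.20). Cth was nearest to Agxt (0.27) and then Slc7a2 (0.40), and Bhmt to its copy Bhmt1b (0.15) and then Hlf (0.25). Gamt was nearest to C1ra and Hebp1 (0.14 each), Pemt to Scrn2 (0.11) and Ctsh (0.12), Cdo1 to Rpl9-ps6 and Pttg1ip (0.15 each) and Csad to Laptm4b and Rps19-ps6 (0.30 each). The median gene differed by 1.0 from Mat1a, 1.4 from Gnmt, 1.25 from Cbs and 2.0 from Cth. It differed by 0.705 from Bhmt, 0.677 from Ahcy and 0.491 from Gamt. From Csad it differed by 0.452, from Cdo1 by 0.364 and from Pemt by 0.349. The nearest genes are by definition the smallest of all differences searched, so lying under these medians is no result in itself.

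Around the path, 70 other genes were listed in 5 groups, of which 46 were in the table and passed the filter. At 4 h 16 were higher, 12 lower and 18 not called, and at 22 h 10 were higher, 11 lower and 25 not called. As shares, 60.9% and 45.7% were called, beside 44.2% and 36.8% of all genes. Their median log2 fold changes were -0.06 and -0.09, beside -0.07 and -0.02 over all genes. Between 22 h and 4 h, 6 were higher, 10 lower and 30 not called, so 34.8% were called beside 29.3% of all genes. The share of all genes depends on the filter. With a minimum count of 50, 53.6% of 8382 genes were called at 4 h, 45.5% at 22 h and 36% between the times.

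Among 12 genes of SAM use and methyltransferases, 3 rose and 4 fell at 4 h, and 2 rose and 2 fell at 22 h. That is 58.3% and 33.3% called, beside 44.2% and 36.8% of all genes. Nnmt, which methylates nicotinamide, rose from 44.67 ± 11.37 to 534.6 ± 127.5 CPM at 4 h and 348.3 ± 81.78 CPM at 22 h (SD, n = 8; log2 3.59 and 2.97, limma-voom adjusted p = 4.88e-14 and 7.25e-12). Its treated livers did not overlap with vehicle. Amd1, which decarboxylates SAM for polyamine synthesis, had log2 rises of 0.62 at 4 h (limma-voom adjusted p = 3.44e-07) and 0.25 at 22 h (limma-voom adjusted p = 0.0148). Tpmt, a methyltransferase for thiopurines, fell by 0.59 at 4 h (limma-voom adjusted p = 2.1e-08) and by 0.42 at 22 h (limma-voom adjusted p = 1.04e-05).

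Of 7 genes of homocysteine remethylation and methyl supply, 4 rose and none fell at 4 h, and 2 rose and 1 fell at 22 h. The shares called were 57.1% and 42.9%, beside 44.2% and 36.8% of all genes. Mtr, the folate-dependent methionine synthase, had 14.55 ± 2.556, 12.76 ± 1.044 and 10.86 ± 1.96 CPM in vehicle, 4 h and 22 h livers. It differed from vehicle by -0.18 at 4 h (limma-voom adjusted p = 0.202) and fell by 0.43 at 22 h (limma-voom adjusted p = 0.00577). The 4 h difference of Mtr passed with sample quality weights and without vehicle replicate 2 (smallest limma-voom adjusted p = 0.0203). Mtrr, the reductase that keeps methionine synthase active, rose by 0.49 at 4 h (limma-voom adjusted p = 0.00022) and had a log2 difference of -0.20 at 22 h (limma-voom adjusted p = 0.141). The 22 h difference of Mtrr passed without 22 h replicate 5 (limma-voom adjusted p = 0.0346). Mtrr was lower at 22 h than at 4 h, with a log2 difference of -0.69 (limma-voom adjusted p = 6.88e-06). Sardh, which breaks down the sarcosine that Gnmt makes, rose by 0.32 at 4 h (limma-voom adjusted p = 0.0239) and by 0.45 at 22 h (limma-voom adjusted p = 0.00322). The 4 h call of Sardh was lost with upper-quartile scaling, with sample quality weights, with livers 13 to 24 alone, and without vehicle replicate 2 or 4 h replicates 4 or 8 (largest limma-voom adjusted p = 0.488). Mmadhc, of cobalamin handling, rose by 0.16 at 4 h (limma-voom adjusted p = 0.0214), a call lost with upper-quartile or total-count scaling, with livers 1 to 12 or 13 to 24 alone and without vehicle replicate 4. At 22 h Mmadhc differed from vehicle by -0.02 (limma-voom adjusted p = 0.818), and it was lower than at 4 h, by a log2 difference of -0.18 (limma-voom adjusted p = 0.0151). That last call was lost with upper-quartile or total-count scaling and with no filter on low counts. It was also lost with livers 1 to 12 or 13 to 24 alone (largest limma-voom adjusted p of all these = 0.332).

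Of 12 genes of cysteine, taurine and sulfide, 5 rose and 3 fell at 4 h, and 3 rose and 2 fell at 22 h. Thus 66.7% and 41.7% were called, beside 44.2% and 36.8% of all genes. Got1, the cytosolic aspartate aminotransferase, which can also take cysteine sulfinate, rose from 133.7 ± 30.96 to 1426 ± 467.0 CPM at 4 h and 641.0 ± 249.3 CPM at 22 h (SD, n = 8; log2 3.39 and 2.20, limma-voom adjusted p = 3.21e-12 and 1.47e-08). Suox, which oxidises sulfite to sulfate, rose by 0.46 at 4 h (limma-voom adjusted p = 6.93e-05) and by 0.51 at 22 h (limma-voom adjusted p = 4.4e-05). Tstd1, of the thiosulfate sulfurtransferase family, fell by 0.97 at 4 h (limma-voom adjusted p = 0.000121) and by 0.78 at 22 h (limma-voom adjusted p = 0.00141), calls lost with livers 1 to 12 alone (largest adjusted p = 0.0601 and 0.242). Slc6a6, the taurine transporter gene, differed by -0.13 at 4 h (limma-voom adjusted p = 0.113) and rose by 0.41 at 22 h (limma-voom adjusted p = 5.46e-05). Its 4 h difference passed with upper-quartile scaling and without vehicle replicate 8 or 4 h replicate 5 (smallest limma-voom adjusted p = 0.016).

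Of 7 genes of glutathione synthesis and use from cysteine, 2 rose and 1 fell at 4 h, and 1 rose and 2 fell at 22 h. The share called was 42.9% each time, near the 44.2% and 36.8% of all genes. Gclc, the catalytic subunit of the rate-limiting ligase, had 526.5 ± 90.57, 560.1 ± 116.4 and 818.6 ± 126.4 CPM in vehicle, 4 h and 22 h livers. Its log2 difference at 4 h was 0.08 (limma-voom adjusted p = 0.645), and it rose by 0.64 at 22 h (limma-voom adjusted p = 0.000477), a call lost with livers 13 to 24 alone (0.129). Gss and Gsr, which finish and recycle glutathione, each rose by 0.31 at 4 h (limma-voom adjusted p = 0.00955 for Gss and 0.00207 for Gsr). At 22 h both had log2 differences of 0.17 and were not called (limma-voom adjusted p = 0.154 for Gss and 0.0953 for Gsr). Gsr passed there without 22 h replicate 8 (limma-voom adjusted p = 0.0332). The 4 h call of Gss was lost with upper-quartile or total-count scaling, and the 4 h calls of Gss and Gsr were lost with livers 1 to 12 alone. Ggct, which degrades gamma-glutamyl peptides, fell by 1.01 at 4 h (limma-voom adjusted p = 1.84e-06) and by 0.63 at 22 h (limma-voom adjusted p = 0.000584).

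Of 8 genes of choline and phosphatidylcholine, 2 rose and 4 fell at each time. This made 75% called, beside 44.2% and 36.8% of all genes at 4 h and 22 h. Etnk2, an ethanolamine kinase, rose from 138.6 ± 16.7 to 616.8 ± 126.7 CPM at 4 h and 329.9 ± 82.04 CPM at 22 h (SD, n = 8; log2 2.14 and 1.23, limma-voom adjusted p = 1.7e-12 and 7.05e-08). Chka, a choline kinase, rose by 1.52 at 4 h (limma-voom adjusted p = 3.1e-08) and by 0.83 at 22 h (limma-voom adjusted p = 0.000358). Slc44a1, a choline transporter, fell by 0.51 at 4 h (limma-voom adjusted p = 2.27e-07) and by 0.53 at 22 h (limma-voom adjusted p = 4.41e-07). Pemt, which makes phosphatidylcholine by the SAM-dependent route, was not called beside them. Among the genes named in these groups, the 22 h calls of Amd1, Mtr, Sardh and Tstd1 were lost with livers 1 to 12 alone, where 10.9% of all genes were called. Those of Gclc and Ggct were lost with livers 13 to 24 alone, where 28.1% of all genes were called.

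**Figure D5:**
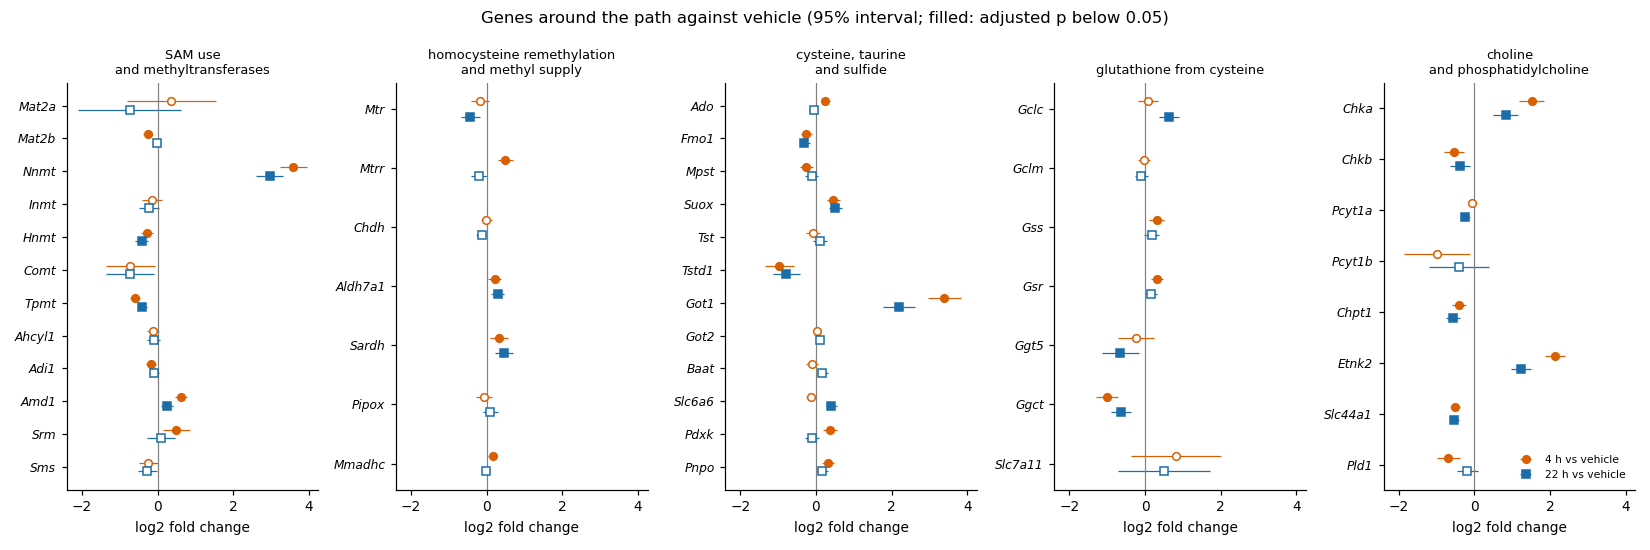
Log2 fold change against vehicle (horizontal axes) with 95% intervals for the 46 other genes of the path in 5 groups, at 4 h (orange circles) and 22 h (blue squares), filled where the limma-voom adjusted p is below 0.05. Nnmt, Got1, Etnk2 and Chka lie farthest to the right of those called, and Mtr and Gclc are filled at 22 h only.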

How the data were processed

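Per the labels' protocols, frozen liver gave RNA by the miRNeasy Mini Kit, and the KAPA mRNA HyperPrep kit gave the libraries. Per the submitters' processing notes, cutadapt, GSNAP and the GRCm38 build were used; versions, the counting tool, annotation and strand setting are not given in the sources used here. The authors deposited whole-number counts per gene and library (14 to 44.1 M per library), not normalized. The scarce gene Mat2a had from 31 to 1788 counts per library, and the part of depth in its spread was not tested.

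Genes were kept with a minimum count of 10 (at median library size) in at least 8 libraries and 15 counts or more over all libraries. The 11508 genes left held 99.92% of counts. Scaling was TMM (trims of 30% and 5%), written out in R 4.3.3. A limma 3.58.1 voom model (offset 0.5) held the 3 group means over 24 libraries, with 21 residual degrees of freedom and Benjamini-Hochberg adjustment at 0.05. CPM is the count over each M scaled library counts. Ratios and correlations used exact permutation (Python 3.11.15, NumPy 2.4.6), and the gene test was first tested on simulated data. The p-values measure the spread between the mice of these groups. The 10 genes and the lists were chosen with earlier results of these data known. Named list genes were the 3 of smallest p at 4 h and the 2 at 22 h per list with at least 5 CPM in 1 group, besides Mat2a, Nnmt, Mtr and Gclc; Slc6a6 was named after its values were seen. For each of the 10 genes the 2 nearest by likeness were named. Of 70 list genes, 47 were in the table and the others, among them Gatm, were not analysed here; 1 further gene is not reported here. Gene positions are RefSeq on GRCm38, and exon lengths, overlaps and shared 50-base stretches come from GENCODE vM21. Library columns were matched by the names in the sample descriptions. Mice were not treated as paired by replicate number. Of same-number pairs of libraries, 10 of 24 correlated above 0.1 (range -0.418 to 0.315). The median was 0.0316 for pairs of the same number and -0.000472 for other pairs. In 11 of 48 matches the best match had the same number. These values cannot decide whether mice were paired.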

Additional observations from a re-analysis of the deposited data

Results flagged for a closer look

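Single livers stood apart in 5 of 42 groups of values looked at, where chance gives about 1 in 20. Ahcy at 22 h had replicate 7 high at 960.5 CPM, with a gap to the next liver of 0.548 of the log2 range. Pemt and Gamt in vehicle livers both had replicate 1 low, at 65.67 and 56.07 CPM, with gaps of 0.565 and 0.655 of the range, and that library also held the brown fat marker Ucp1 at 1390 CPM. The log2 ratio of Mat2a to Mat1a had replicate 8 high at 4 h (0.671 of the range) and replicate 1 low at 22 h (0.681 of the range).

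The differences from the same 22 h vehicle livers were not alike at the 2 times for 4 measures. Drug and hour after injection cannot be told apart in them. The change in Bhmt was 0.6361 log2 units higher at 22 h than at 4 h and that in Cbs 0.4343 higher. The log2 ratio of Cth to Cbs differed by -0.5425 between the times and that of Mat2a to Mat1a by -1.187 (exact permutation p = 0.00404, adjusted 0.00808 over 12 ratio tests).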

How the results depend on the processing

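The 10 genes were refitted with other scalings, filters, weights and libraries, and log2 fold changes kept direction and side of the threshold except as follows and as given beside the results. Fits with edgeR and DESeq2 were not run, because the layout of the table was not accepted as counts. A replicate block left the number of the 10 genes called at 7, 6 and 2, beside 47.1%, 38.1% and 29.8% of all genes. The block changed 1 ratio call, Mat2a to Mat1a at 22 h against 4 h (-1.19, exact permutation adjusted p = 0.0536). With quality weights Cth at 22 h against 4 h was 0.0024. With livers 1 to 12 alone (4 per group), 15, 11 and 9 other genes of the path were called at 4 h, 22 h and 22 h against 4 h (25.3%, 10.9% and 13% of all genes), and 0 of the 10 genes in the last by limma-voom (2 at an unadjusted p under 0.05). In that comparison Mat1a (-0.27), Gnmt (-0.11), Ahcy (-0.25), Pemt (-0.040) and Cdo1 (-0.18) changed direction. With livers 13 to 24 alone 5 of the 10 were called there (21.9% of all genes), and Cdo1 at 4 h (-0.13), Csad at 22 h (-0.10) and, between the times, Cth (0.17) and Csad (-0.15) changed direction. For ratios 4 against 4 livers allow no exact p under 0.0286. The log2 Csad to Cdo1 ratio was -0.11, 0.35 and 0.47 in livers 1 to 12, the last 2 called (exact permutation adjusted p = 0.0429). There Mat2a to Mat1a between times was -1.001. In livers 13 to 24, Cth to Cbs was 1.00, 0.61 and -0.39, Gnmt to Mat1a 0.50 and 0.58 against vehicle, and Mat2a to Mat1a 0.061, -1.31 and -1.37, none called. Leaving out 1 liver at a time, differences between the times ran from -0.032 to 0.16 for Ahcy, -0.0014 to 0.074 for Pemt, -0.21 to 0.048 for Cth and -0.012 to 0.13 for Csad. The Csad to Cdo1 ratio ran from -0.11 to 0.16 at 4 h, -0.13 to 0.077 at 22 h and -0.19 to 0.068 between the times. The cause was not tested.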
